A study of Mus musculus with 4 samples.

Results

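The small RNA content of plasma from sham-operated mice was described from the 2 libraries labelled Sham, out of 4 libraries in the study. These libraries were chosen by label alone, while the tissue lists used below were made with earlier results of these data known. The 2 libraries of mice with acute myocardial infarction (AMI) entered no comparison of plasma content. The mice were C57BL/6 by the labels and, by the study's methods, male and 8 weeks old. Sham mice underwent anaesthesia, intubation and a left thoracotomy without ligation of the coronary artery, so these libraries come from operated and not from untouched animals. Plasma, the cell-free part of blood, was the source of the RNA. Neither the labels nor the methods say whether Sham 1 and Sham 2 came from separate mice or from pooled blood, or how long after surgery the blood for them was taken. Any spread between them may therefore be technical, biological or both, and these cannot be told apart.

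MicroRNAs (miRNAs) are short RNAs cut from hairpin precursors, and the seed, the stretch from base 2 to base 8, guides them to target mRNAs. They stay intact in plasma because they are held in vesicles, lipoproteins and protein complexes. Most come from blood cells and the vessel wall, while a few are made almost only in one organ and are used as signs of RNA leaving that organ. Piwi-interacting RNAs (piRNAs) are somewhat longer and are known mainly from the germ line, and in body fluids entries under that name often overlap fragments of other short RNAs.

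Library preparation marked each cDNA with a random sequence tag, the unique molecular identifier (UMI), and the copies that PCR made of it were counted as 1. Sham 1 held 7460687 UMIs and Sham 2 held 4842247, from 8691950 and 6192511 reads, or 1.17 and 1.28 reads per UMI. The table lists 921 miRNA and 94 piRNA entries. miRNA entries took 7449612 UMIs in Sham 1 and 4831827 in Sham 2, and shares below are percentages of these totals. Exact (Clopper-Pearson) 95% intervals cover counting error only, and they are narrow at this depth.

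The sequences below were chosen to show leading miRNAs of the pool, members of the largest seed families, miRNAs far apart between the libraries and the leading muscle miRNA, miR-206-3p. No sequence is printed for miR-486b-5p, miR-486a-5p, miR-122-5p, miR-30d-5p or miR-143-3p. Those printed are RefSeq mature sequences, 5′ to 3′, with the seed in capitals.
miR-16-5p: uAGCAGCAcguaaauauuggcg
let-7c-5p: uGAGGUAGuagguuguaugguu
let-7b-5p: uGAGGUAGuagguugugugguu
let-7i-5p: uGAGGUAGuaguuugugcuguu
let-7a-5p: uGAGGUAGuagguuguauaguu
let-7f-5p: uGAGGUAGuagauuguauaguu
let-7g-5p: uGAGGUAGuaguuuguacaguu
miR-451a: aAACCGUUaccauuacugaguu
miR-144-3p: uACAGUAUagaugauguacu
miR-21a-5p: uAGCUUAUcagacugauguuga
miR-142a-3p: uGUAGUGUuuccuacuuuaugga
miR-25-3p: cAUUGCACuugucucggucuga
miR-92a-3p: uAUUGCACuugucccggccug
miR-205-5p: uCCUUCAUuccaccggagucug
miR-203-3p: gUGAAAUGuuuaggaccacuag
miR-206-3p: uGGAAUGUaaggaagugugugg

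In the GRCm38.p6 annotation, miR-16-5p is encoded at chr3:69009918-69009939 in an intron of Smc4 and at chr14:61631936-61631957 in an intron of Dleu2. miR-451a (chr11:78073186-78073207) and miR-144-3p (chr11:78073047-78073066) lie next to each other and overlap no annotated gene of another type. Overlap with other miRNA genes was not examined for any miRNA. miR-21a-5p (chr11:86584120-86584141) lies in an exon of Vmp1, and miR-25-3p (chr5:138165332-138165353) in an exon of Mcm7. let-7b-5p (chr15:85707325-85707346) and a copy of let-7c-5p (chr15:85706616-85706637) share an exon of the long non-coding RNA gene Lncppara. The second copy of let-7c-5p (chr16:77599672-77599693) lies in an intron of Mir99ahg. miR-142a-3p (chr11:87756903-87756925) lies in an intron of its host RNA Mir142hg, and miR-206-3p (chr1:20679055-20679076) in an exon of the long non-coding RNA Gm28653. miR-205-5p (chr1:193507503-193507524) lies in an exon of the long non-coding RNA 4631405K08Rik, and miR-203-3p (chr12:112130927-112130948) overlaps no gene of another type.

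A small number of miRNAs made up most of Sham plasma. miR-16-5p, a broadly expressed miRNA that is also plentiful in blood cells, was first in both libraries with 1553978 UMIs (20.9% of miRNA UMIs) in Sham 1 and 652831 (13.5%) in Sham 2. miR-486b-5p, which is abundant in red cells, followed with 667420 and 308193 UMIs (8.96% and 6.38%). let-7c-5p had 337145 and 472850 UMIs (4.53% and 9.79%) and was second in Sham 2. The red cell miRNA miR-451a, which is matured by Argonaute 2 without Dicer, had 519247 and 189987 UMIs (6.97% and 3.93%). The first 4 by mean share therefore held both blood cell miRNAs and a let-7 member.

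miR-21a-5p, found in most tissues and raised in many forms of injury, had 261758 and 283265 UMIs (3.51% and 5.86%). let-7b-5p had 227098 and 252951 UMIs (3.05% and 5.24%). let-7i-5p was nearly level, with 251508 and 152684 UMIs (3.38% and 3.16%). The leukocyte miRNA miR-142a-3p had 297247 and 120809 UMIs (3.99% and 2.50%). miR-25-3p and miR-486a-5p closed the first 10 by mean share, with 2.12% and 1.60% for the former and 1.74% and 1.33% for the latter. The remaining 20 of the first 30 each held between 0.591% and 2.09% in either library. Among them were the myeloid miRNA miR-223-3p (1.02% and 1.84%), the hepatocyte miRNA miR-122-5p (0.591% and 2.09%), the endothelial miRNA miR-126a-3p (1.08% and 1.15%) and miR-143-3p (1.48% and 0.611%), which is abundant in smooth muscle.

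**Figure D1:**
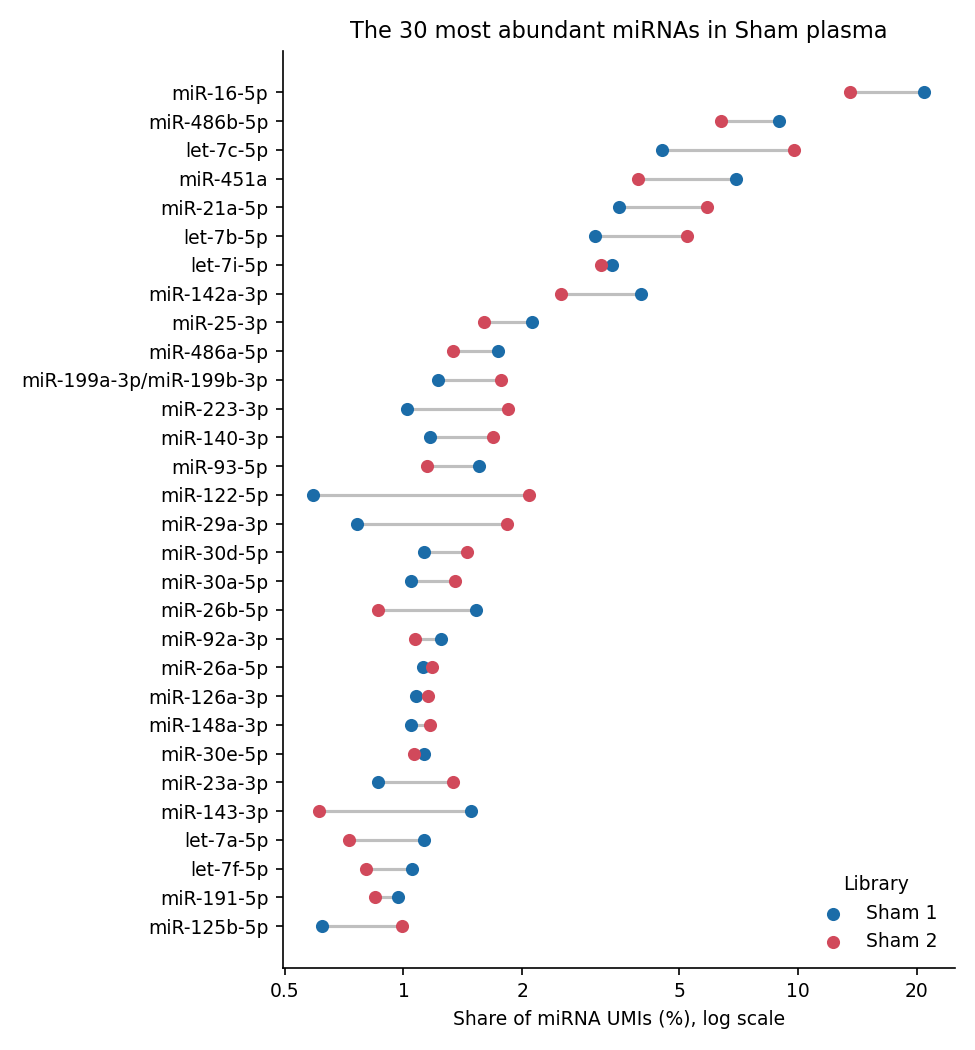
Share of miRNA UMIs (%, log scale) of the 30 miRNAs with the largest mean share; each point is 1 library and the grey line joins the 2 libraries. miR-16-5p stands apart at 20.9% and 13.5%, and miR-122-5p and miR-143-3p have the widest gaps in opposite directions.

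The entries for miR-486a-5p and for miR-486b-5p come from near-identical hairpins, and the split of reads between them is uncertain. GENCODE lists Mir486 at chr8:23142555-23142682, in an intron of the ankyrin gene Ank1. Together the pair held 796859 UMIs (10.7%) in Sham 1 and 372521 (7.71%) in Sham 2, and the entry for miR-486b-5p had 5.16 and 4.79 times the UMIs of that for miR-486a-5p.

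A share of 50% of miRNA UMIs was reached with 7 miRNAs in Sham 1 and 8 in Sham 2. The first 10 of each library summed to 59.1% and 54.3%, the first 30 to 81.0% and 79.2%, and the first 100 to 96.8% and 96.3%. It took 50 and 54 miRNAs to reach 90%, and 167 and 181 to reach 99%. The effective number of miRNAs, the number of equally abundant miRNAs that would give the same Shannon entropy, was 39.3 in Sham 1 and 47.7 in Sham 2. Sham 2 was thus spread over more miRNAs than Sham 1, by each of these measures. The 10 most abundant miRNAs of the libraries had 8 in common, the 30 most abundant 26, and the 100 most abundant 91.

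**Figure D2:**
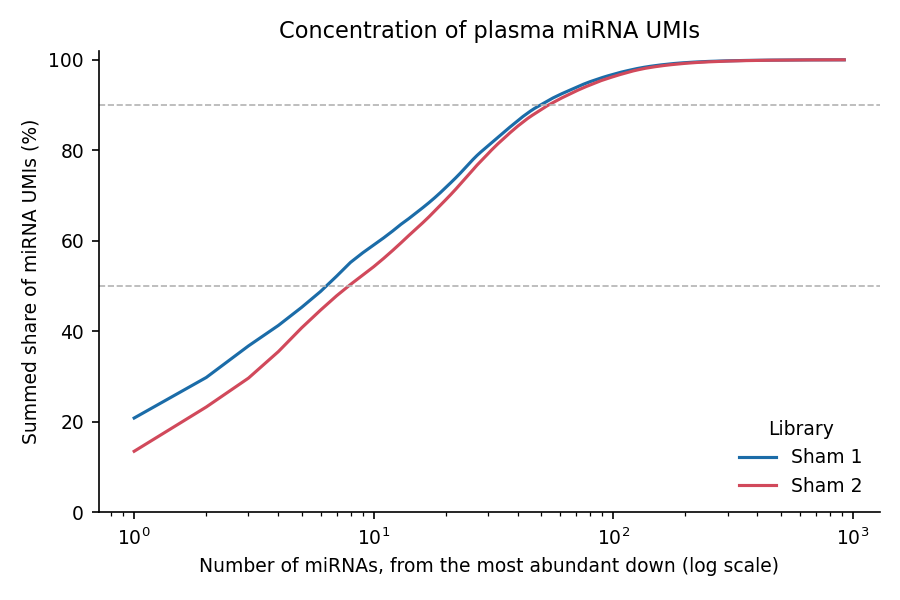
Summed share of miRNA UMIs (%) against the number of miRNAs, counted from the most abundant down (log scale), 1 line per library; dashed lines mark 50% and 90%. The Sham 1 line lies above the Sham 2 line until both approach 100%, and they cross 90% at 50 and 54 miRNAs.

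Beyond the leading miRNAs the pool was long and thin. Of the 921 miRNA entries, 836 had at least 1 UMI in Sham 1 and 846 in Sham 2, and 764 had one in both. At least 10 UMIs in both libraries were found for 622. The median entry had 32 UMIs in Sham 1 and 26 in Sham 2, and 174 and 153 entries reached 1000 UMIs. A count of 0 allows up to 3 UMIs, or 4.03e-05% of miRNA UMIs in Sham 1 and 6.21e-05% in Sham 2, where the entry was counted at all. That condition matters, because the larger count of an entry was never 1 to 9 when Sham 1 was set beside AMI 2 or Sham 2 beside AMI 1, while the other 4 pairings had 71 to 169 such entries. In these pairs 77 and 73 miRNA entries were at 0 in both libraries, so an entry listed at 0 may not be a measured absence. The 72 miRNAs seen only in Sham 1 had at most 17 UMIs, and the 82 seen only in Sham 2 at most 43.

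Grouped by seed, the miRNAs with a RefSeq sequence (783 of 921, or 82.4% and 84.9% of miRNA UMIs) formed 678 families, and 610 of these had a single entry. The 10 largest of these families, ranked among miRNAs with a sequence only, held 62.2% of miRNA UMIs in Sham 1 and 57.3% in Sham 2. The miR-15/16 family (seed AGCAGCA, 7 entries) took 21.9% and 14.3%, nearly all of it miR-16-5p. The let-7 family (seed GAGGUAG, 11 entries), which represses growth genes and marks differentiated cells, took 14.3% and 20.3%. The order of these families was reversed between the libraries: miR-15/16 led in Sham 1 and let-7 in Sham 2.

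The families after them were smaller. Entries without a sequence are outside this grouping and its order. Among them are miR-486b-5p and miR-486a-5p (together 10.7% and 7.71%), miR-122-5p, miR-30d-5p and miR-143-3p of the 30 leading miRNAs. miR-451a alone (AACCGUU) held 6.97% and 3.93%, miR-21a-5p with miR-21c (AGCUUAU) 3.52% and 5.87%, and miR-142a-3p (GUAGUGU) 3.99% and 2.50%. The seed AUUGCAC, shared by miR-25-3p, miR-92a-3p and 3 others, took 3.39% and 2.69%. These miRNAs come from related clusters with roles in cell growth. Among entries with a sequence, the seed GUAAACA of miR-30a-5p and miR-30e-5p was nearly level (2.57% and 2.66%). That sum leaves out miR-30d-5p (1.12% and 1.45%) and miR-30b-5p (0.139% and 0.156%), miR-30 members by name without a sequence here. UCAAGUA of miR-26a-5p and miR-26b-5p held 2.64% and 2.04%. AAAGUGC, the seed of miR-93-5p, miR-17-5p and miR-20a-5p, held 1.81% and 1.26%, and CAGUAGU of the joint entry for miR-199a-3p and miR-199b-3p 1.23% and 1.76%.

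Within the let-7 family the members did not keep their proportions. let-7c-5p was 31.7% of the family in Sham 1 and 48.2% in Sham 2, and let-7b-5p 21.4% and 25.8%. let-7i-5p was 23.7% and 15.6%, let-7a-5p 7.91% and 3.59%, let-7f-5p 7.36% and 3.95%, and let-7g-5p 4.66% and 1.48%. let-7c-5p and let-7b-5p thus made up more of the family in Sham 2, and the other abundant members less. The ratio of let-7c-5p to let-7a-5p, which bind the same seed matches, was 4.01 in Sham 1 and 13.5 in Sham 2. These entries differ by few bases, so their separation rests on exact reads. Counted from 1 at the 5′ end and relative to let-7c-5p, let-7b-5p carries A17G, let-7a-5p G19A, let-7f-5p G12A and G19A, and let-7g-5p G12U, U18C and G19A. let-7i-5p carries G12U, A17G, U18C and G19U.

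Abundant miRNAs also shared sequence features. Matched miRNA UMIs began with U in 75.9% of Sham 1 and 78.9% of Sham 2, against 40.1% of the matched entries when each counted once. A first A made up 15.4% and 13.2% of UMIs against 25.8% of entries, and a first G 0.617% and 1.08% against 12.4%. The share of entries with a first U was 76% among ranks 1 to 30 (25 matched entries), 63.2% among ranks 31 to 100 (57), 39.0% among ranks 101 to 300 (182) and 36.2% below (519). Argonaute proteins are known to hold a 5′ U or A better than a G. Here U was more frequent among UMIs than among entries, while both A and G were less frequent. Whether Argonaute binding played a part was not tested. Length was also narrow, with 77.3% and 79.0% of UMIs on 22-base miRNAs against 50.2% of entries. Mean GC content was 43.2% and 43.7% weighted by UMIs and 51.5% over entries.

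By place in the genome, 59 groups of hairpins within 10 kb of each other on a strand held 25.5% of miRNA UMIs in Sham 1 and 25.4% in Sham 2. A further 36 miRNAs, with 32.4% and 31.1%, are encoded at several places and cannot be assigned to one. By mean share the first cluster was Mir144 with Mir451a on chromosome 11, transcribed together in red cell precursors, at 7.58% and 4.10%. Mirlet7c-2 with Mirlet7b on chromosome 15 came second at 3.06% and 5.26% and was ahead of it in Sham 2. That sum leaves out let-7c-5p, which is encoded at 2 places. The Mir25, Mir93 and Mir106b cluster on chromosome 5 held 4.0% and 3.06%, and the Mir23a, Mir27a and Mir24-2 cluster on chromosome 8 1.11% and 1.77%. Although Mir144 and Mir451a share a transcript, miR-451a exceeded miR-144-3p by 12.1 times in Sham 1 and 27.2 times in Sham 2.

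The hairpin has 2 arms, 5p and 3p, and usually a single arm is kept. Of 234 hairpin names with both arms listed, 161 had at least 100 UMIs over both arms in each library. The 5p arm held the majority in both libraries for 85 of these, the 3p arm for 69, and the majority changed for 7. At least 90% of UMIs came from the 5p arm in both libraries for 62 hairpins and from the 3p arm for 44. These 106 one-sided hairpins have little room to differ, and their median difference between the libraries was 0.308 percentage points. For the other 55 it was 7.19 points, and 18 of them differed by more than 10.

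Most of the abundant hairpins were one-sided. The 5p arm was 99.9% of miR-21a in both libraries, 99.5% of let-7b, and 99% and 99.1% of miR-486b. The value for miR-486b depends on the uncertain split of reads between it and miR-486a. The 3p arm dominated in miR-25 (5p share 0.25% and 0.209%), miR-223 (0.747% and 0.989%) and miR-142a (3.47% and 2.88%). miR-126a, of the endothelial gene Egfl7, released both arms in quantity, with a 5p share of 31.2% (n = 116578 UMIs) and 29.8% (n = 79238). miR-140 had 17.6% and 9.64%. These 8 were chosen among the 15 hairpins with the most UMIs after their values were seen.

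The hairpins nearest to an even split were much rarer. miR-296 had a 5p share of 53.6% (95% interval 50.2 to 57.0, n = 853 UMIs) in Sham 1 and 46.4% (41.2 to 51.6, n = 373) in Sham 2. miR-299a had 51.6% and 47.7%, miR-877 54.4% and 53.4%, and miR-369 47.6% and 58.8%. The intervals of the libraries overlapped for these hairpins except miR-369, which stood at 43.4 to 51.9 in Sham 1 and 54.5 to 63.0 in Sham 2. miR-3071 (38.7% and 51.9%), miR-136 (62.3% and 47.6%), miR-511 (62.6% and 49.0%) and miR-1968 (61.3% and 42.8%) completed the 8 nearest. Of these, miR-136 (59.5 to 65.0 and 44.7 to 50.6) and miR-1968 (56.9 to 65.6 and 38.1 to 47.5) had intervals that did not overlap. Nearness was taken from the mean of the libraries, which can lie on opposite sides of 50%.

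The largest difference in arm use was in let-7d, where the 5p share was 85.2% (n = 32930 UMIs) in Sham 1 and 62.1% (n = 15115) in Sham 2. let-7d-5p had 28040 and 9386 UMIs, while let-7d-3p stood at 4890 and 5729. Its 5p arm belongs to the let-7 seed family, in which let-7a-5p, let-7f-5p and let-7g-5p also had lower shares in Sham 2. Other members, among them let-7c-5p, let-7b-5p and let-7e-5p, had higher shares there. The family summed to 14.3% in Sham 1 and 20.3% in Sham 2. miR-450b (58.9% and 80.6%), miR-1968, miR-362 (39.3% and 22.4%) and miR-376b (76.8% and 60.6%) followed, on 124 to 2504 UMIs per library.

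**Figure D3:**
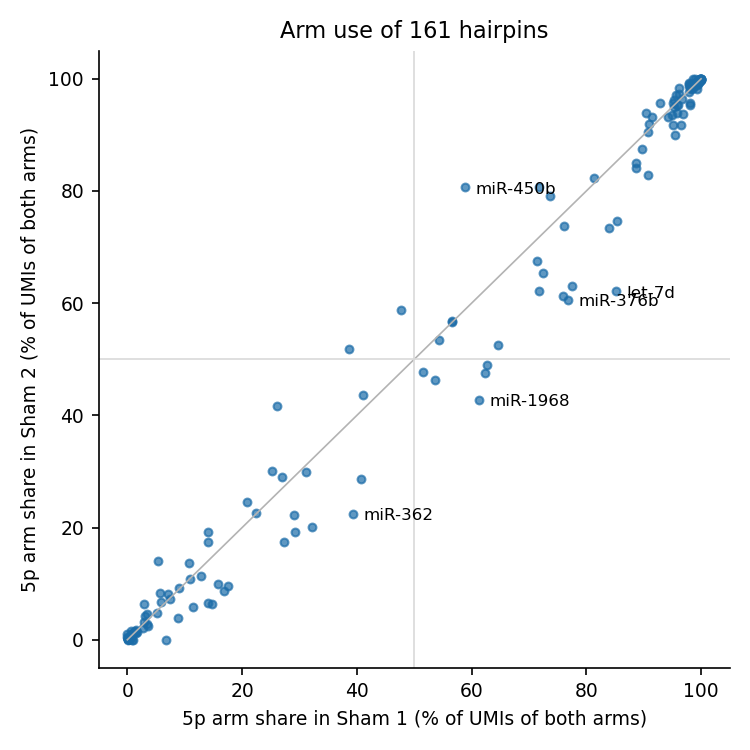
Share of UMIs on the 5p arm (% of the UMIs of both arms) in Sham 2 against Sham 1 for 161 hairpins with at least 100 UMIs over both arms in each library; each point is a hairpin, the diagonal marks equal shares and the grey lines 50%. Most points lie in the corners near the diagonal, and the 5 named hairpins lie farthest from it, led by let-7d at 85.2% and 62.1%.

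The likely tissues of origin were read from 16 lists of miRNAs known to be abundant in one cell type or tissue, each miRNA on 1 list only. The lists held 146 of the entries and 90.7% and 87.7% of miRNA UMIs. In plasma, more releasing cells and more release per cell cannot be told apart. Broadly expressed miRNAs took 55.5% in Sham 1 and 56.1% in Sham 2, and the lists of blood and vessel cells most of the rest. The near-equal totals of the broad list hid opposite differences, with 16 members higher in Sham 2 and 20 lower. Among them, miR-16-5p held 20.9% and 13.5%, and let-7c-5p 4.53% and 9.79%.

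The 7 red cell entries summed to 18.5% in Sham 1 and 12% in Sham 2, and each was lower in Sham 2, beside 113 of the 301 miRNAs with at least 100 UMIs in both libraries. These entries are not independent, as all come from miR-486a and miR-486b or from the Mir144 and Mir451a cluster. miR-144-3p, with 42967 and 6979 UMIs, was the furthest apart among them. With miR-16-5p added, these miRNAs reached 39.4% and 25.5%. Lymphocyte and leukocyte miRNAs took 4.81% and 3.37%, led by miR-142a-3p. miR-150-5p, typical of mature lymphocytes, had 27978 and 20580 UMIs (0.376% and 0.426%). The myeloid pair from miR-223 took 1.03% and 1.86%. Leukocyte entries were therefore split in direction, unlike the red cell list, with 3 of 6 lymphocyte and leukocyte entries of at least 100 UMIs higher in Sham 2 and 3 lower.

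Vessel wall miRNAs were steadier. The endothelial list summed to 2.16% and 2.33%, with miR-126a-3p at 80252 and 55601 UMIs and miR-221-3p at 35103 and 28280. The smooth muscle and fibroblast list summed to 3.05% and 2.88%, but its members differed in direction. miR-143-3p had 110533 and 29508 UMIs, whereas miR-199a-5p had 5682 and 10285 and miR-199b-5p 1967 and 5641. The near-equal totals of that list thus hid opposite differences within it. The cartilage pair from miR-140, which the annotation places in an exon of Wwp2, took 1.42% and 1.86%. Its members also differed in direction, with miR-140-3p at 1.17% and 1.68% and miR-140-5p at 0.249% and 0.179%.

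Muscle miRNAs were present in both Sham libraries. The heart and skeletal muscle list summed to 1.87% in Sham 1 and 1.42% in Sham 2. miR-206-3p, which is made in skeletal muscle and hardly in the heart, led with 49437 and 33014 UMIs (0.664% and 0.683%). miR-133a-3p had 43001 and 18688 UMIs (0.577% and 0.387%), and miR-1a-3p 42455 and 14894 (0.570% and 0.308%). Both are made in heart and skeletal muscle alike. The miRNAs carried in myosin heavy chain genes were rare by comparison: miR-499-5p had 177 and 55 UMIs, miR-208b-3p 29 and 14, and the cardiac miR-208a-3p 6 and 1. These 3 miRNAs lie below the 4 leading members of their list and were named after their values were seen. For miR-208a-3p the UMIs are too few to compare the libraries.

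Among the lists above 0.1% of miRNA UMIs, the hepatocyte and epithelial lists differed most between the libraries, by 3.52-fold and 3.19-fold. miR-122-5p, by far the main miRNA of hepatocytes, had 44052 UMIs in Sham 1 and 100764 in Sham 2, 0.591% and 2.09% of the pool, and made up 99.8% of its list. The list of liver, gut and kidney miRNAs, with miR-192-5p first, took 0.486% and 0.641%. The epithelial list took 0.792% and 2.52%, and 8 of its 8 entries with at least 100 UMIs in both libraries were higher in Sham 2, beside 188 of all 301 such miRNAs. Most of that gap came from miRNAs of stratified epithelium such as skin, since miR-205-5p had 18761 and 61948 UMIs and miR-203-3p 6915 and 25757. miR-200c-3p, shared by all epithelia, had 7020 and 10492 UMIs, and miR-200b-3p was lower in number but not in share, with 9531 and 7442 UMIs (0.128% and 0.154%).

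The remaining lists took small shares. The sensory and eye list took 0.277% and 0.483%, mostly miR-184-3p, and the neuron list 0.140% and 0.113%, mostly miR-128-3p with 9073 and 3925 UMIs. The neuronal miRNA miR-124-3p, outside the 4 leading members of its list, had 15 and 11 UMIs. miR-375-3p, of pancreatic islets and other endocrine cells, had 1687 and 1941 UMIs. The testis list summed to 712 and 1197 UMIs and the embryonic stem cell list to 8 and 28 UMIs, with only 4 of its 26 names listed.

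**Figure D4:**
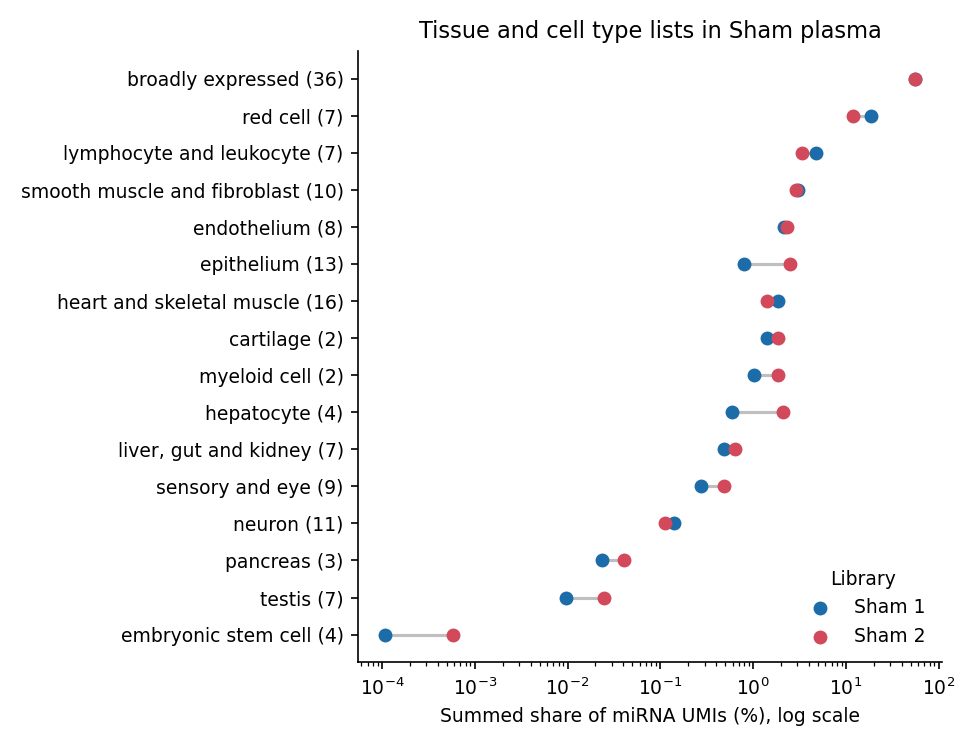
Summed share of miRNA UMIs (%, log scale) of 16 tissue and cell type lists, with the number of listed entries in brackets; each point is 1 library and the grey line joins the 2 libraries. The lists run from the broadly expressed miRNAs (55.5% and 56.1%) down to embryonic stem cell miRNAs (8 and 28 UMIs), and the hepatocyte and epithelium lists have the widest gaps of those above 0.1%.

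The libraries were compared entry by entry for the 301 miRNAs with at least 100 UMIs in both, which held 99.8% and 99.7% of miRNA UMIs. Their log2 shares had a Pearson correlation of 0.970 and a Spearman correlation of 0.962 across miRNAs, which share the same 2 libraries and are not replicates. The log2 ratio of the share in Sham 2 to that in Sham 1 had a median of 0.18, an SD of 0.74 and a range from -0.96 to 1.38 between the 5th and the 95th percentile. Sham 2 exceeded Sham 1 by more than 2-fold for 46 miRNAs (15.3% of those compared) and fell short of it by more than 2-fold for 14 (4.65%). For 239 of the 301 the 95% counting intervals did not overlap, so the spread between the libraries was wider than counting error. Shares sum to 100% and are not independent: miR-16-5p was lower in Sham 2, and 188 of the 301 were higher there.

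The 5 miRNAs with the largest excess in Sham 2 were miR-203-3p (log2 ratio 2.52), miR-205-5p (2.35), miR-199b-5p (2.14), miR-362-3p (2.0) and miR-34b-3p (1.85). The last is a miRNA of ciliated cells and testis, on 109 and 255 UMIs. The 5 with the largest deficit were miR-144-3p (-2.0), miR-143-5p (-1.46), miR-20a-5p (-1.34), miR-143-3p (-1.28) and miR-374b-5p (-1.22). Both arms of miR-143 were thus on this side, with 973 and 230 UMIs for miR-143-5p.

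By list, the median log2 ratio was -0.49 for red cell miRNAs (0 of 7 higher in Sham 2), -0.58 for heart and skeletal muscle (1 of 5 higher) and 0.68 for epithelium (8 of 8), beside 0.18 for all 301. All compared entries were higher in Sham 2 for testis (3 of 3, median 1.47) and myeloid cell (2 of 2, 1.05). The same held for sensory and eye (5 of 5, 0.76) and liver, gut and kidney (5 of 5, 0.59). Hepatocyte and pancreas had 1 compared entry each, also higher. Directions were mixed for endothelium (5 of 6 higher), smooth muscle and fibroblast (5 of 9), neuron (2 of 3) and cartilage (1 of 2). The leukocyte (3 of 6) and broadly expressed (16 of 36) lists were mixed too. Lower shares in Sham 2 also went with base composition. Among 26 compared miRNAs with a GC content of up to 35%, 21 were lower in Sham 2 and the median log2 ratio was -0.55, against 96 of 264 and 0.20 for all compared miRNAs with a sequence. miR-144-3p has 30% GC. The classes above 35% GC had medians of 0.07 to 0.42, and over the 264 miRNAs the Pearson correlation of GC content with the log2 ratio was 0.20. The part of GC content, depth or red cell RNA in these differences was not tested.

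**Figure D5:**
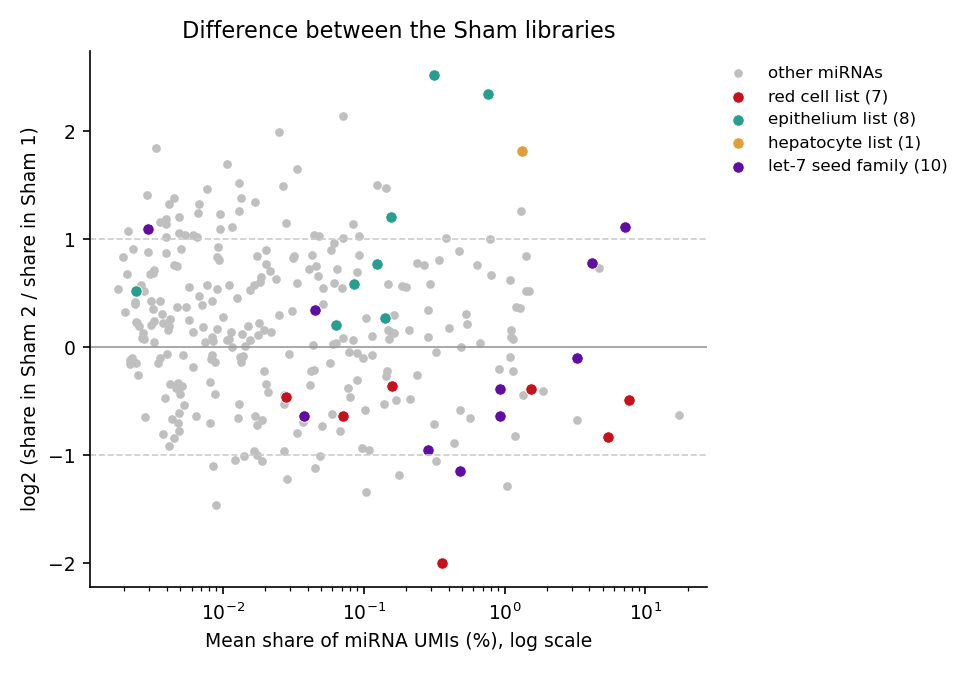
log2 ratio of the share in Sham 2 to the share in Sham 1 against the mean share of miRNA UMIs (%, log scale) for 301 miRNAs with at least 100 UMIs in both libraries; colours mark 3 tissue lists and the let-7 seed family, with their number of points, and dashed lines mark 2-fold. Red cell points lie below 0, epithelium and hepatocyte points above 0, and let-7 points on both sides.

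Reads per UMI, the number of times a tagged molecule was read, was even across miRNAs, with a median of 1.12 in Sham 1 and 1.28 in Sham 2 and a range of 1 to 1.28 and 1.01 to 1.39. miR-16-5p had 1.28 and 1.32. Among the lowest were entries that resemble a far more abundant miRNA: let-7k, 4 edits from let-7b-5p, had 1.00 and 1.01 on 141 and 195 UMIs, and miR-3967, 4 edits from miR-21a-5p, 1.04 and 1.03 on 154 and 184. miR-126b-3p, encoded opposite Mir126a, had 1.02 and 1.05 on 1263 and 889 UMIs. Whether these entries hold misread copies of the abundant miRNA was not tested. All 3 were named, from a longer set of low entries, after their values were seen. Over the 13 compared miRNAs within 3 edits of a far more abundant one, the medians were 1.10 and 1.23. For the 243 at a greater distance they were 1.12 and 1.28.

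piRNA entries took 11075 UMIs in Sham 1 and 10420 in Sham 2, or 0.148% (95% interval 0.146 to 0.151) and 0.215% (0.211 to 0.219) of all UMIs. The 94 entries carry 55 names, because 14 names are listed at several places, and 77 entries had at least 1 UMI in both libraries. Their listed lengths ran from 21 to 32 bases with a median of 27. The pool was concentrated, with the first 10 entries at 68.7% and 73.8% of piRNA UMIs. piR-000620, listed at 2 places, led with 3676 and 4272 UMIs (33.2% and 41.0%), split as 1552 and 2433 UMIs for one entry and 2124 and 1839 for the other.

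piR-000691, listed at 22 places, followed with 2829 and 1744 UMIs (25.5% and 16.7%). Its entry at chr8:126492702-126492727 had 954 and 225 UMIs. By share of piRNA UMIs that entry had the widest gap among the 10 leading entries, at 3.99-fold. Of names listed at a single place, piR-032974 had 698 and 566 UMIs, piR-027673 638 and 545, piR-017405 316 and 191, and piR-032865 297 and 146. piR-000366 (447 and 802 UMIs) and piR-000616 (437 and 718) were higher in Sham 2. Entries of several names overlap at 12 places, so some reads could have been counted under either name.

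Positions of piRNA entries are given as the table lists them. The 20 entries of piR-000691 on chromosome 8 spanned positions 126424875 to 126509751. In GRCm38 the 41 annotated 5S ribosomal RNA genes of chromosome 8 lie between 123538784 and 123622046, and 17 of the 20 entries fell within 5 bases of the position expected from a single shift of 2886089 bases, while 0 did so without a shift. The piRNA positions may therefore follow another build than mm10, and no annotation was taken from them.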

How the data were processed

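Plasma small RNA from 2 Sham libraries was analysed, out of 4 in the series. For each miRNA and piRNA entry the table deposited by the authors gives counts of UMIs and of reads, without normalization. The submitters' notes name bcl2fastq 2.18.0.12 and mm10. For the aligner, the trimming and the miRNA reference, nothing is stated (not given in the sources used here). A blank line of the table was skipped.

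Shares, ranks, arm use and list sums were computed in Python 3.11.15 with numpy 2.4.6, pandas 2.3.3 and scipy 1.17.1, and checked on simulated data. Figures used matplotlib 3.10.9. A single group has no test. Ratios needed 100 UMIs in both libraries, and arm use 100 UMIs over both arms. miRNAs named were the 30 with the largest mean share, the 10 leading seed families and piRNA entries, up to 4 members per tissue list, the 5 largest ratios in each direction, the 8 hairpins nearest an even split and the 5 with the largest arm difference, besides those said to be chosen later. Members and the 16 lists (203 names) were chosen with earlier results of these data known. Sequences are from RefSeq (GRCm38.p6).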

Additional observations from a re-analysis of the deposited data

How the results depend on the processing

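Of 283 values recomputed under alternatives for 54 results, 264 moved by less than the spread between the libraries or, for counts, by less than 1.5 times, and 19 moved more. Leaving out a library gives the value of the other, which lies within 1 SD of their mean by construction and so says nothing about stability. Summing UMIs over both libraries or adding piRNA entries to the denominator moved no result. By read counts the mean share of let-7i-5p was 3.11% in place of 3.27%, and no other result moved.

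Lists lean on their first member by construction. Without it, the mean share of miRNA UMIs was 7.60% for red cell, 0.00227% for hepatocyte, 0.266% for liver, gut and kidney, 0.972% for heart and skeletal muscle, 1.13% for endothelium, 0.0130% for myeloid cell, 0.841% for lymphocyte and leukocyte, 0.0250% for neuron, 0.000862% for pancreas, 1.47% for smooth muscle and fibroblast, 0.110% for sensory and eye, 0.214% for cartilage and 38.6% for broadly expressed miRNAs. The other lists fell by less than the spread between the libraries. Epithelium had 0.891% in place of 1.66%, testis 0.00943% in place of 0.0172%, and embryonic stem cell 0.000214% in place of 0.000343%. For epithelium that spread was wide (SD 1.22). Without miR-16-5p, 71.3% of matched UMIs started with U, in place of 77.4%. With 1 entry per piRNA name, piRNAs took 0.118% of UMIs in place of 0.182%, and the first entry 32.7% of piRNA UMIs in place of 18.7%. The mean share of hairpins with most UMIs on the 5p arm was 55%, and 56.3% and 58.3% with minimums of 20 and 1000 UMIs.

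No paired analysis was possible because no groups were compared. With 2 libraries of unknown source, no spread between mice can be given, and entries under about 100 UMIs are too shallow for a ratio.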
